A study of Mus musculus with 13 samples.

Results

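The expression of 9 genes of oligodendrocytes and their myelin was read in the hippocampus of 13 mice. They were Mbp, Mobp, Mag, Mog, Cnp, Aspa, Ugt8a, Ermn and Tspan2, 9 of the 19938 genes measured, and each had 1 probe set, so that 9 of the 35556 probe sets of the array were followed. The genes were chosen from a list drawn up with earlier results of these same arrays in view, genotype differences among them. The genotype values below are therefore a description, and no p-value of a single gene is given for them. The differences between the experiments were among those earlier results too, so their p-values, adjusted over all genes, are no independent support.

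The study compared Kmt2d+/βGeo mice, a model of Kabuki syndrome that carries a βGeo gene-trap allele on 1 copy of the histone methyltransferase gene Kmt2d, with Kmt2d+/+ wild-type mice, all on a C57BL/6J background, 1 to 2 months old and on standard chow. Experiment 1 held 3 Kmt2d+/βGeo and 4 wild-type mice without injections, and its RNA was taken up on RNeasy columns. Experiment 2 held 3 Kmt2d+/βGeo and 3 wild-type mice that received 3 saline injections a day, and its RNA was extracted with TRIzol before column cleanup. The labels give female sex for 12 mice and an unknown sex for replicate 3 of the wild-type mice in experiment 1. Injections and RNA extraction changed together between the experiments. They cannot be told apart from each other or from anything else that differed between the experiments.

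Oligodendrocytes wrap axons in myelin, a stack of membrane held together by basic proteins and rich in galactolipid and cholesterol. In the hippocampus myelin is sparse among the cell bodies and dense in the alveus, the fimbria and the overlying white matter. At 1 to 2 months of age mouse forebrain is still adding myelin. In whole tissue, fewer oligodendrocytes and less RNA per oligodendrocyte cannot be told apart.

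The 250 bases before the transcription start are shown for 5 of the 9 genes, all of them with a motif described below. Promoters came from RefSeq in build GRCm38.p6, which held 11 windows for 8 of the 9 genes. Each runs 5′ to 3′ on the gene's strand, and capitals mark, on either strand, CTGGNAC (which includes the core bound by Myrf, the oligodendrocyte myelin factor), ACAAAG (the core of sites of Sox factors such as Sox10) and CAGCTG (an E-box form bound by helix-loop-helix factors such as Olig2).
Mag (chr7:30914923-30915172, minus strand): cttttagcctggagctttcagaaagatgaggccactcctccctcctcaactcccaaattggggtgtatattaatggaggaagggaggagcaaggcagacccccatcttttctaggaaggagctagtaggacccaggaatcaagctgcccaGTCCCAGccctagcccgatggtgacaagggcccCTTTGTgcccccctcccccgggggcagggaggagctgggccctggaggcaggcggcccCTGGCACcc
Mog (chr17:37023399-37023648, minus strand): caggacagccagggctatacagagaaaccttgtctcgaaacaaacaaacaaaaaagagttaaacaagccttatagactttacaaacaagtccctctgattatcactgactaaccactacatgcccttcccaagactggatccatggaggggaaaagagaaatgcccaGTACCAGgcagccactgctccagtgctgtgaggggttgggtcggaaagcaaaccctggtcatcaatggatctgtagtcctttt
Cnp (chr11:100574689-100574938, plus strand): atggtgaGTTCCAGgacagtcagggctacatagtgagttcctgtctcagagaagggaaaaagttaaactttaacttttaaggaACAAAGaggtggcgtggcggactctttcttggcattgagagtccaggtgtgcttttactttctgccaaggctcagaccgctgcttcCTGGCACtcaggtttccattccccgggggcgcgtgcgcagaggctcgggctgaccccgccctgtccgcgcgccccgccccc
Mobp (chr9:120149492-120149741, plus strand): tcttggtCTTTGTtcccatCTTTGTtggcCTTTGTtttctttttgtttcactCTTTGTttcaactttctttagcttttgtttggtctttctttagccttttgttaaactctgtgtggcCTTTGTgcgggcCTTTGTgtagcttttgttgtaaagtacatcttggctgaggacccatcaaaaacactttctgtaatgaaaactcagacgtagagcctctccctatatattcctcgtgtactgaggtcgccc
Aspa (chr11:73324638-73324887, minus strand): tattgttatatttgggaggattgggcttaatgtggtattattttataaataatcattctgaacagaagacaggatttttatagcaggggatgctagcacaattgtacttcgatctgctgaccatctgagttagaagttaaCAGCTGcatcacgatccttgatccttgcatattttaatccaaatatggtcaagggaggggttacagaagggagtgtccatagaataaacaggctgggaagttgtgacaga
CTGGNAC lay in 4 of the 11 windows (of Cnp, Mag and Mog), against 19.3% of all 32851 windows of 300 bases. ACAAAG lay in 5 of the 11 (of Cnp, Mag, Mobp and Tspan2), against 18.7% of all windows, and the Mobp stretch held it 6 times. CAGCTG lay in 1 of the 11 (of Aspa), against 16.3% of all windows. Of the 3 Mag windows, 2 overlap and hold the same CTGGNAC and ACAAAG sites, which are thus counted in both. By gene, CTGGNAC lay in 3 of 8, ACAAAG in 4 of 8 and CAGCTG in 1 of 8, while the shares given are per window. The windows of Ermn and Ugt8a held none of these motifs and are not shown. These letter matches are a description and none of the motifs overlapped another. A part of such sites in how the genes varied was not tested.

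Across the series, the arrays of experiment 2 had medians of 7.04 to 7.08 log2 units and upper quartiles of 8.59 to 8.66, against medians of 6.75 to 6.90 and upper quartiles of 8.80 to 8.87 in experiment 1. Kmt2d has 2 probe sets, whose place relative to the trap was not examined. Probe set 10432294 read 7.17 to 7.47 in Kmt2d+/βGeo against 7.87 to 7.90 in wild-type mice of experiment 1, and 7.88 to 8.18 against 8.32 to 8.76 in experiment 2. Probe set 10432298 read 9.84 to 9.96 in Kmt2d+/βGeo against 9.82 to 9.83 in wild-type mice of experiment 1, and 9.49 to 9.80 against 9.46 to 9.82 in experiment 2. Wild-type replicate 2 of experiment 1 stood apart in genes of striatal projection neurons, whose mean there lay 1.81 log2 units above the experiment's mean, against -0.40 to -0.25 on the other 6 arrays.

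In experiment 1 each of the 9 genes had a lower mean in Kmt2d+/βGeo mice than in wild-type mice, with a median difference of -0.25 log2 units against 0.01 over all genes. In experiment 2, 8 of the 9 had a higher mean in Kmt2d+/βGeo mice, with a median of 0.26 against -0.01 over all genes. The widest difference was that of Aspa in experiment 1 and that of Tspan2 in experiment 2. Values are deposited log2 intensities, and levels are compared within a gene only.

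Mbp and Mobp encode proteins of compact myelin. Mbp encodes myelin basic protein, which zips the cytoplasmic faces of the membrane together. It read 11.71, 11.73 and 11.52 log2 units in Kmt2d+/βGeo mice, against 11.77, 11.92, 11.81 and 11.78 in wild-type mice of experiment 1. The readings of experiment 2 were 10.69, 10.79 and 10.53 in Kmt2d+/βGeo mice, against 10.40, 10.99 and 10.84 in wild-type mice. Every Kmt2d+/βGeo mouse of experiment 1 lay below every wild-type mouse, and the genotypes overlapped in experiment 2. The difference was -0.17 ± 0.12 log2 units (SE, n = 3 and 4) in experiment 1 and -0.07 ± 0.13 (SE, n = 3 each) in experiment 2, the only 1 of the 9 below 0 there. Mobp encodes the myelin-associated oligodendrocyte basic protein, a second basic protein of compact myelin. It read 10.90, 11.02 and 10.86 in Kmt2d+/βGeo mice, against 11.19, 11.42, 11.22 and 11.15 in wild-type mice of experiment 1. Experiment 2 gave 10.39, 10.81 and 10.81 in Kmt2d+/βGeo mice, against 9.97, 10.77 and 10.61 in wild-type mice. The genotypes did not overlap in experiment 1, where the difference was -0.32 ± 0.16, and overlapped in experiment 2, where it was 0.22 ± 0.17 (SE).

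The surface proteins Mag and Mog carry immunoglobulin domains. Mag, on the innermost wrap, binds the axon. It read 11.21, 11.22 and 10.68 log2 units in Kmt2d+/βGeo mice, against 11.22, 11.46, 11.32 and 11.10 in wild-type mice of experiment 1. Its values in experiment 2 were 11.09, 11.16 and 11.42 in Kmt2d+/βGeo mice, against 10.38, 11.42 and 11.22 in wild-type mice. The genotypes overlapped in both experiments, and 1 low mouse in each, Kmt2d+/βGeo replicate 3 of experiment 1 and wild-type replicate 1 of experiment 2, lay well under the others. To 3 decimals Mag read the same value, 11.225, on 3 arrays. Its differences were -0.24 ± 0.20 and 0.21 ± 0.21 (SE) in experiments 1 and 2. Mog lies on the outermost wrap and is a known autoantigen. It read 10.55, 10.64 and 10.20 in Kmt2d+/βGeo mice, against 10.64, 10.74, 10.76 and 10.62 in wild-type mice of experiment 1. The readings of experiment 2 were 9.87, 10.13 and 10.11 in Kmt2d+/βGeo mice, against 9.29, 10.01 and 9.90 in wild-type mice. The same 2 mice were lowest, the genotypes overlapped, and the differences were -0.23 ± 0.15 and 0.30 ± 0.16 (SE).

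Cnp, Ugt8a and Aspa encode enzymes. Cnp makes a phosphodiesterase that keeps cytoplasmic channels open in the sheath. It read 11.78, 11.84 and 11.50 log2 units in Kmt2d+/βGeo mice, against 11.87, 12.07, 11.98 and 11.90 in wild-type mice of experiment 1. Experiment 2 gave 10.38, 10.61 and 10.67 in Kmt2d+/βGeo mice, against 9.71, 10.66 and 10.52 in wild-type mice. The genotypes did not overlap in experiment 1 (-0.25 ± 0.17, SE) and overlapped in experiment 2 (0.26 ± 0.18, SE). Ugt8a makes the galactosyltransferase for galactocerebroside, the main myelin galactolipid. It read 10.03, 10.06 and 9.72 in Kmt2d+/βGeo mice, against 10.17, 10.32, 10.01 and 10.06 in wild-type mice of experiment 1. Its values in experiment 2 were 8.99, 9.58 and 9.97 in Kmt2d+/βGeo mice, against 8.72, 9.29 and 9.17 in wild-type mice. The genotypes overlapped in both experiments. Its spread in Kmt2d+/βGeo mice of experiment 2, an SD of 0.49, was the widest of the 9 genes in that group, and its differences were -0.20 ± 0.19 and 0.45 ± 0.20 (SE).

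Aspa splits N-acetylaspartate, a metabolite made by neurons, into aspartate and acetate that oligodendrocytes can use for lipid. It read 8.49, 8.43 and 7.94 log2 units in Kmt2d+/βGeo mice, against 8.94, 9.07, 8.92 and 8.79 in wild-type mice of experiment 1. The readings of experiment 2 were 8.85, 9.01 and 9.16 in Kmt2d+/βGeo mice, against 8.60, 9.30 and 8.75 in wild-type mice. The Kmt2d+/βGeo mice of experiment 1 thus stood below all 10 other mice, and the other 3 groups overlapped. The difference in experiment 1 was -0.64 ± 0.16 (1.56-fold lower; SE, n = 3 and 4), and -0.47 without Kmt2d+/βGeo replicate 3. In experiment 2 it was 0.12 ± 0.17 (SE, n = 3 each).

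Ermn encodes ermin, an actin-binding protein of the late oligodendrocyte. It read 9.85, 9.75 and 9.28 log2 units in Kmt2d+/βGeo mice, against 10.15, 10.26, 9.98 and 9.97 in wild-type mice of experiment 1. Experiment 2 gave 8.72, 9.20 and 9.45 in Kmt2d+/βGeo mice, against 8.26, 8.99 and 8.81 in wild-type mice. The genotypes did not overlap in experiment 1 (-0.46 ± 0.19, SE) and overlapped in experiment 2 (0.44 ± 0.20, SE). Tspan2 encodes a tetraspanin that gathers other proteins of the myelin membrane. It read 10.63, 10.70 and 10.34 in Kmt2d+/βGeo mice, against 10.75, 11.00, 11.08 and 10.57 in wild-type mice of experiment 1. Its values in experiment 2 were 9.93, 10.26 and 10.41 in Kmt2d+/βGeo mice, against 9.56, 9.79 and 9.80 in wild-type mice. Here the pattern of overlap was turned round, with overlap in experiment 1 (-0.29 ± 0.14, SE) and every Kmt2d+/βGeo mouse above every wild-type mouse in experiment 2 (0.48 ± 0.15, 1.40-fold higher; SE).

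**Figure D1:**
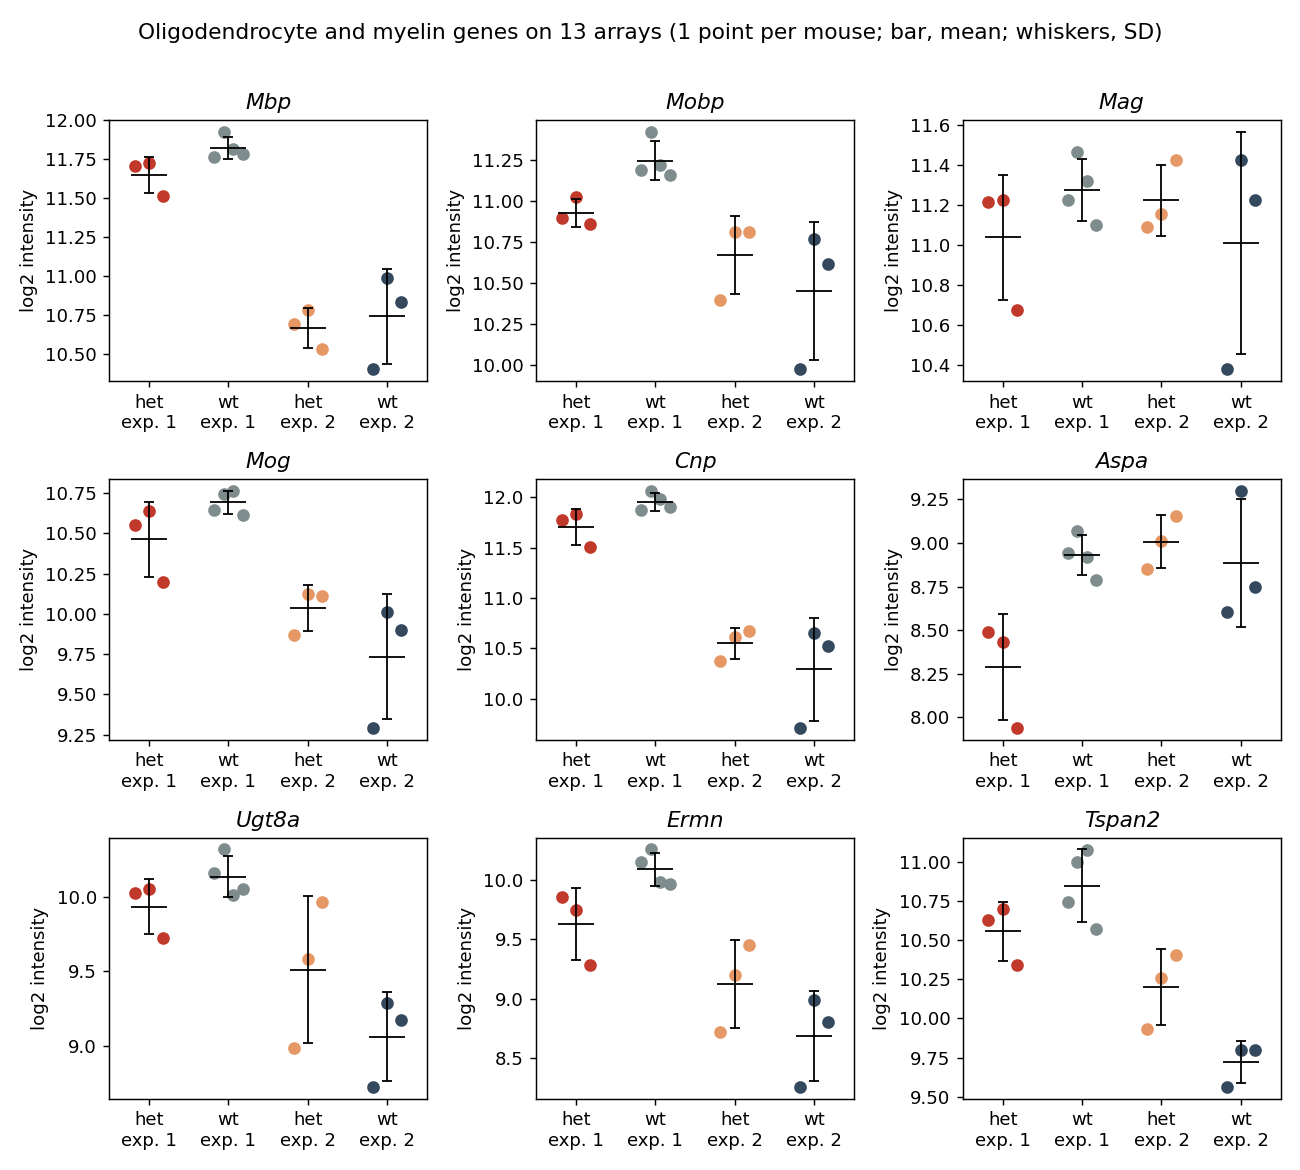
Log2 intensity of each of the 9 genes (y axes, which differ in range) by genotype and experiment (x axes), 1 point per mouse, with a horizontal bar for the mean and whiskers for the SD; het is Kmt2d+/βGeo and wt is wild type. Aspa is lowest in Kmt2d+/βGeo mice of experiment 1, at 7.94 to 8.49. Mbp, Mobp, Mog and Cnp are lower in every mouse of experiment 2 than in any mouse of experiment 1, for which the share of all genes was not counted.

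Counting over the 9 genes, 5 (Mbp, Mobp, Cnp, Aspa and Ermn) had every Kmt2d+/βGeo mouse below every wild-type mouse in experiment 1, where 2.75% of all genes did, and none had the reverse, where 4.47% did. In experiment 2 none lay wholly below, where 5.17% of all genes did, and Tspan2 lay wholly above, where 4.32% did. These counts come from the contrast on which the genes were chosen and nothing is read from them. With limma over all genes, 4 genes passed an adjusted p of 0.05 in experiment 1 (0.0201%), and 0 in experiment 2 (0%). At an unadjusted p under 0.05 there were 698 genes in experiment 1 and 2042 in experiment 2. None of the 9 passed the adjusted threshold in either experiment. Over both experiments together the 9 genes had a median difference of -0.03, with 3 above 0, from Aspa at -0.29 ± 0.15 to Ugt8a at 0.10 ± 0.15 (SE). With 1 array left out this median lay between -0.18 (without wild-type replicate 1 of experiment 2) and 0.09 (without Kmt2d+/βGeo replicate 3 of experiment 1), and it was also above 0 without wild-type replicate 2 of either experiment. No gene of the table passed there (0%), with 1046 at an unadjusted p under 0.05.

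The genotype effect of experiment 2 minus that of experiment 1 was above 0 for all 9 genes, from 0.10 ± 0.17 for Mbp to 0.90 ± 0.27 for Ermn (SE), with a median of 0.54 against -0.02 over all genes. It was 0.77 ± 0.20 for Tspan2 and 0.76 ± 0.23 for Aspa. Without wild-type replicate 1 of experiment 2 the median was 0.31 and Mbp was at -0.07, with the other 8 above 0. No gene of the table passed for this difference (0%; limma, 1301 at an unadjusted p under 0.05).

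**Figure D2:**
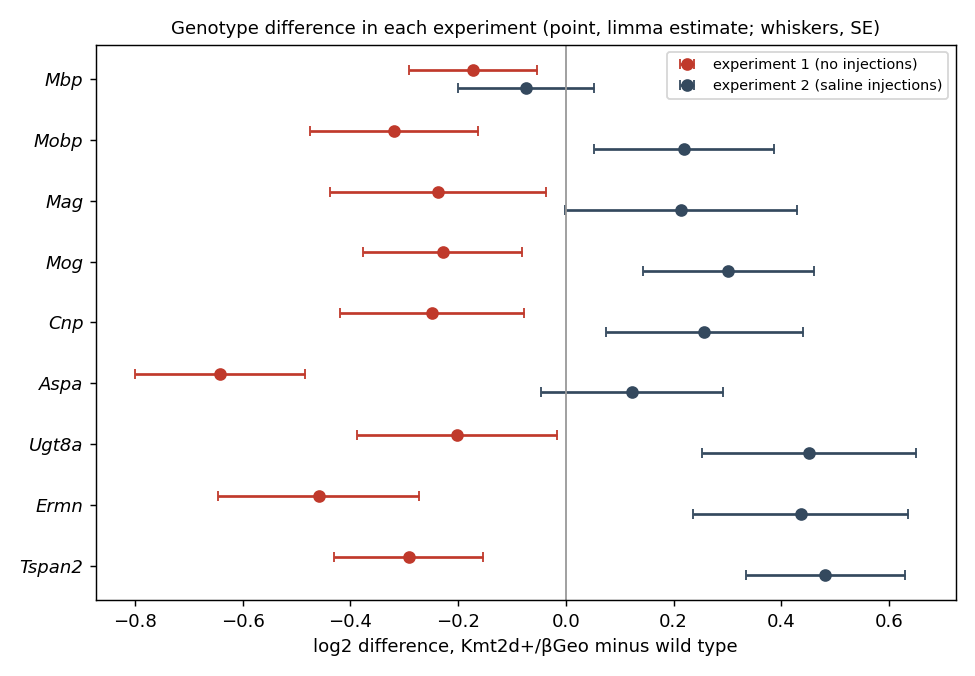
Genotype difference of each gene (Kmt2d+/βGeo minus wild type, log2 units, x axis) in experiment 1 (red) and experiment 2 (blue), as limma estimates with SE whiskers. All 9 points of experiment 1 lie below 0, with Aspa at -0.64, and 8 of the 9 points of experiment 2 lie above 0, with Tspan2 at 0.48.

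In each experiment 1 mouse was lowest throughout. Kmt2d+/βGeo replicate 3 had the lowest value of experiment 1 for 9 of 9 genes, with a mean 0.42 log2 units below the experiment's mean, against -0.07 and -0.04 in the other Kmt2d+/βGeo mice and 0.02 to 0.27 in wild-type mice. Wild-type replicate 1 had the lowest value of experiment 2 for 9 of 9 genes, at -0.54, against -0.10, 0.20 and 0.30 in Kmt2d+/βGeo mice and -0.02 and 0.16 in the other wild-type mice. The highest value of experiment 1 was in wild-type replicate 2, the array high in striatal genes, for 7 of the 9 genes. Without Kmt2d+/βGeo replicate 3 the median difference in experiment 1 was -0.15, and without wild-type replicate 2 it was -0.21, with all 9 genes below 0 in each case. Without wild-type replicate 1 the median difference in experiment 2 was -0.02, with 4 genes above 0 (Mog at 0.08, Ermn at 0.22, Ugt8a at 0.28 and Tspan2 at 0.40).

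**Figure D3:**
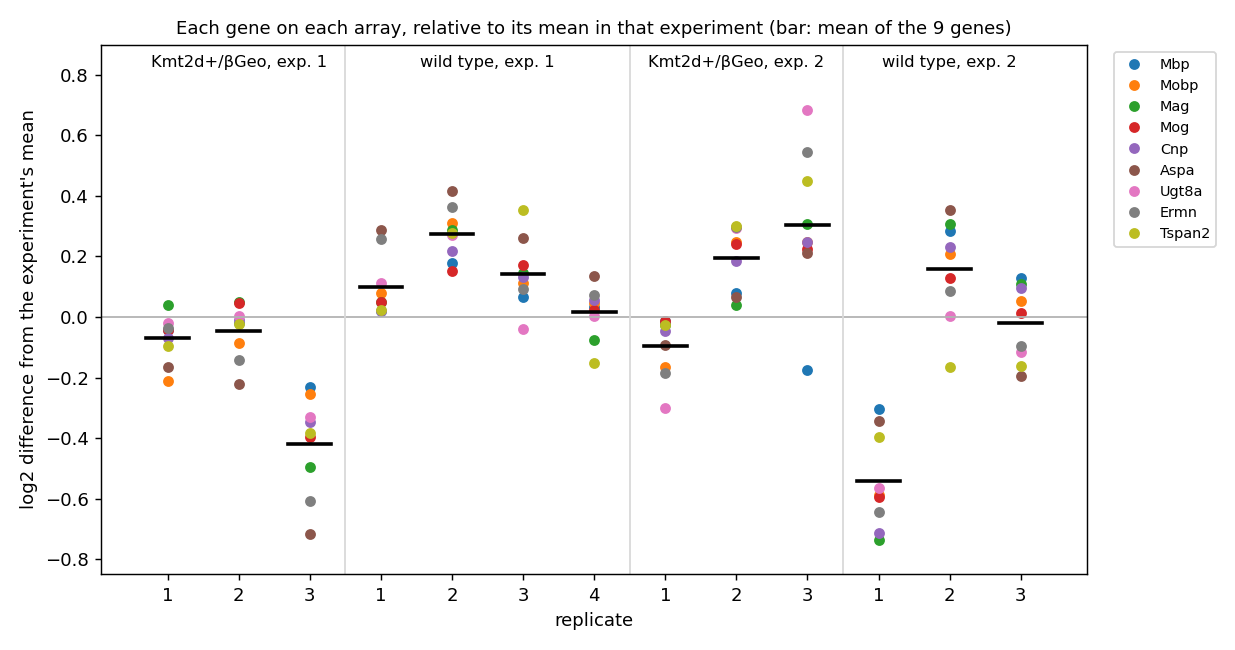
Each gene's log2 intensity relative to its own mean in that experiment (y axis) on each of the 13 arrays (x axis, by group and replicate), with a black bar for the mean of the 9 genes. Kmt2d+/βGeo replicate 3 of experiment 1 and wild-type replicate 1 of experiment 2 lie lowest, with means of -0.42 and -0.54.

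The 9 genes varied together. After each experiment's mean was subtracted, the 36 pairs of genes had Pearson correlations of 0.30 to 0.97 over the 13 arrays, with a median of 0.79, and with group means subtracted the median was also 0.79. Cnp, Mog and Mag correlated with each other at 0.94 to 0.97. The lowest values were those of Mbp, at 0.30 with Tspan2 and 0.31 with Ugt8a. All pairs share the same arrays, their normalisation and the 2 lowest mice.

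Outside the 9, the genes most like their mean over the 13 arrays, by Pearson correlation after the same subtraction, were Cldn11 (0.96), Tnfaip6 (0.94), Fnbp1 (0.93), Septin4 (0.93), Pip4k2a (0.92), Gjc3, Fa2h, Myrf, Trf and Tmem88b (0.91 each). Cldn11 makes the tight junctions of the sheath, Gjc3 is a connexin of oligodendrocytes, Fa2h hydroxylates the fatty acids of myelin lipid, Myrf drives myelin genes and Trf is transferrin. Cldn11 read 11.12, 11.17 and 10.87 log2 units in Kmt2d+/βGeo mice, against 11.19, 11.50, 11.25 and 11.14 in wild-type mice of experiment 1. The readings of experiment 2 were 10.96, 11.27 and 11.24 in Kmt2d+/βGeo mice, against 10.65, 11.14 and 11.10 in wild-type mice. Its lowest mouse in each experiment was the one lowest for the 9 genes. Cldn11 was picked for its likeness to them on these arrays, so this is no separate support. The most negative correlations were those of S100a4 (-0.92), Olfr980 (-0.89), Tph2 (-0.89), Col19a1 (-0.88) and Padi4 (-0.87).

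A wider list of mature oligodendrocyte genes was mostly below 0 in experiment 1 and split about evenly in experiment 2. Of 54 measured genes without the 9, 47 were below 0 in Kmt2d+/βGeo mice of experiment 1 (median -0.17) and 28 were above 0 in experiment 2 (median 0.00). None passed in either. Elovl7, a fatty acid elongase, had a difference of -0.60 ± 0.25 in experiment 1 and 0.61 ± 0.26 in experiment 2, and Trf -0.39 ± 0.15 and 0.07 ± 0.16 (SE). At the other end Jph4 had 0.06 and -0.24, and Rnf220 0.07 and -0.14. Of 12 further genes of compact myelin and adhesion, 12 were below 0 in experiment 1 (median -0.18) and 7 above 0 in experiment 2 (median 0.07), among them Mal, a lipid-raft protein, at -0.29 and 0.15. The tetraspanin Cd82 had -0.56 and 0.23, and Gpm6b, of the proteolipid family, 0.00 and 0.09. None of the 12 passed in either.

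In experiment 1 the lists of earlier stages and of regulators had medians nearer 0. Of 25 genes of oligodendrocyte precursors, 15 were below 0 in experiment 1 (median -0.01) and 17 above 0 in experiment 2 (median 0.07). Bmp4, a growth factor of newly committed cells, had differences of -0.30 and 0.16, and Gpr17, a receptor of the same stage, 0.20 and 0.05. The ends of the list were Cacng4, at -0.42 and 0.00, and Sstr1, at 0.34 and 0.07. Sstr1 was at -0.05 in experiment 1 without the array of unknown sex and the array high in striatal genes. On the latter array Cacng4 read 10.443, against 9.435 to 9.469 in the other wild-type mice and 9.128 to 9.369 in Kmt2d+/βGeo mice of experiment 1. Of 18 transcription factors, 10 were below 0 in experiment 1 (median -0.01) and 10 above 0 in experiment 2 (median 0.02). Myrf had differences of -0.27 and 0.08, Id4 -0.20 and 0.01, Tcf7l2 0.16 and -0.03, and St18 0.32 and -0.05. Id4 read 10.282 on the array high in striatal genes, against 9.805 to 9.864 in the other wild-type mice of experiment 1. None of these genes passed in either experiment.

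Some marker lists of other cells and tissues also differed in mean between the genotypes in experiment 1, though none of their genes passed. Of 18 ependymal genes, 18 were below 0 in Kmt2d+/βGeo mice of experiment 1 and 12 above 0 in experiment 2. Their mean lay at -0.35 to -0.12 in Kmt2d+/βGeo mice and 0.06 to 0.27 in wild-type mice of experiment 1, and at 0.02 to 0.09 in Kmt2d+/βGeo mice and -0.18 to 0.12 in wild-type mice of experiment 2. Of 21 choroid plexus genes, 21 were below 0 in experiment 1 and 19 above 0 in experiment 2. Their mean lay at -0.63 to -0.29 in Kmt2d+/βGeo mice and -0.52 to 0.76 in wild-type mice of experiment 1, and at -0.31 to 0.63 in Kmt2d+/βGeo mice and -0.81 to 0.51 in wild-type mice of experiment 2. The genotypes thus overlapped in choroid plexus genes in both experiments. Of 19 dentate granule cell genes, 16 were above 0 in experiment 1, with a mean of 0.11 to 0.19 in Kmt2d+/βGeo mice and -0.32 to 0.02 in wild-type mice. Of 16 striatal genes, 16 were below 0 in experiment 1, where 1 wild-type array was high. Log2 intensities have no 0, so no marker is listed at 0, and the part of these tissues in the myelin differences was not tested.

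**Figure D4:**
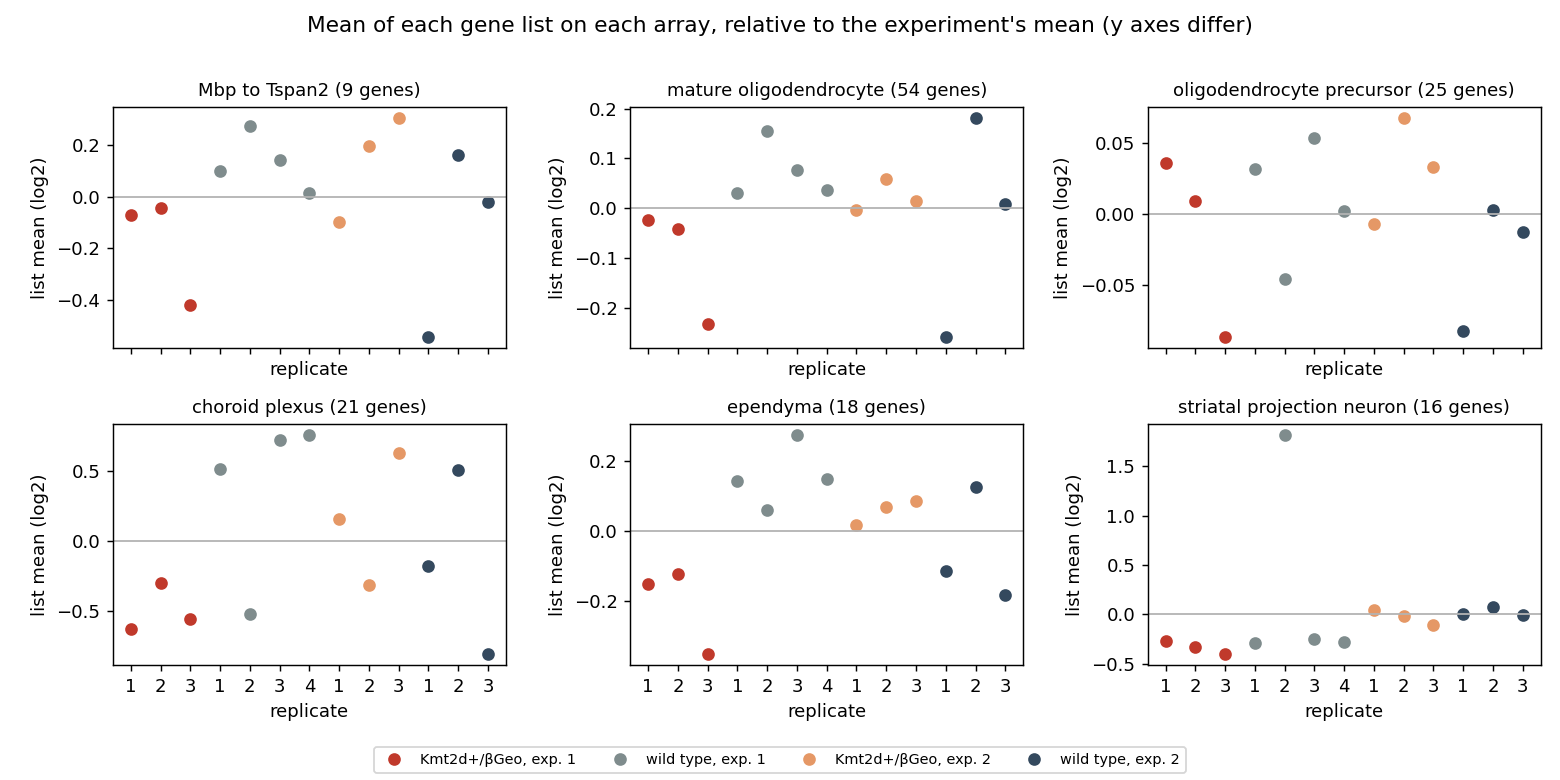
Mean log2 level of 6 gene lists on each array relative to the experiment's mean (y axes, which differ in range) by replicate (x axis), coloured by group; the first panel is the 9 genes from Mbp to Tspan2. Ependymal genes lie lower in the 3 Kmt2d+/βGeo mice of experiment 1 than in its wild-type mice, as does the mean of the 9 genes, and striatal genes are high on a single wild-type array at 1.81.

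Between the experiments the 9 genes did not all move alike. In Kmt2d+/βGeo mice 5 genes fell in experiment 2 relative to experiment 1 (Cnp, Mbp, Ermn, Mog and Tspan2), where 31.3% of all genes fell, and 1 rose (Aspa), where 31% of all genes rose. In wild-type mice 7 fell (all but Mag and Aspa), where 32% of all genes fell, and 0 rose, with all 9 below 0, where 37.3% of all genes rose. The median difference of the 9 was -0.42 log2 units in Kmt2d+/βGeo mice, against 0.05 over all genes, and -1.08 in wild-type mice, against 0.08 over all genes. Without Kmt2d+/βGeo replicate 1 of experiment 2 the median in Kmt2d+/βGeo mice was -0.22. More genes fell than rose once the dimmest 30% of genes by mean were left out. Of the 13956 genes then tested, 6110 fell and 3368 rose in Kmt2d+/βGeo mice (median -0.17). In wild-type mice 6208 fell and 3928 rose (median -0.14). The medians of the 9 genes stayed at -0.42 and -1.08.

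Cnp fell most, by 1.15 ± 0.18 log2 units in Kmt2d+/βGeo mice (2.22-fold; limma adjusted p = 6.68e-05) and fell by 1.66 ± 0.17 in wild-type mice (3.16-fold; limma adjusted p = 6.11e-07). Every mouse of experiment 2, at 10.67 or less, lay below every mouse of experiment 1, at 11.50 or more. Mbp fell by 0.98 ± 0.13 in Kmt2d+/βGeo mice (limma adjusted p = 9.28e-06) and fell by 1.08 ± 0.12 in wild-type mice (limma adjusted p = 1.28e-06), again without overlap. Ermn fell by 0.51 ± 0.20 in Kmt2d+/βGeo mice (limma adjusted p = 0.0384) and fell by 1.40 ± 0.19 in wild-type mice (limma adjusted p = 9.54e-06). Tspan2 fell by 0.36 ± 0.15 in Kmt2d+/βGeo mice (limma adjusted p = 0.0467) and fell by 1.13 ± 0.14 in wild-type mice (limma adjusted p = 3.73e-06). Mog fell by 0.43 ± 0.16 in Kmt2d+/βGeo mice (limma adjusted p = 0.029) and fell by 0.96 ± 0.15 in wild-type mice (limma adjusted p = 4.14e-05). The difference of Ugt8a was -0.42 ± 0.20 in Kmt2d+/βGeo mice (limma adjusted p = 0.0751), and it fell by 1.08 ± 0.19 in wild-type mice (limma adjusted p = 0.000116). That of Mobp was -0.26 ± 0.17 in Kmt2d+/βGeo mice (limma adjusted p = 0.192), and it fell by 0.80 ± 0.16 in wild-type mice (limma adjusted p = 0.000362). Mog and Mobp did not overlap between the experiments either. The share of all genes without such overlap was not counted, so nothing is read from it.

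Mag passed in neither genotype and Aspa in Kmt2d+/βGeo mice only. Mag differed by 0.19 ± 0.21 in Kmt2d+/βGeo mice (limma adjusted p = 0.465) and by -0.27 ± 0.20 in wild-type mice (limma adjusted p = 0.247). All 3 Kmt2d+/βGeo mice of experiment 2 lay above all 3 of experiment 1 for Aspa, a separation whose share over all genes was not counted. Aspa rose by 0.72 ± 0.17 in Kmt2d+/βGeo mice (1.65-fold, limma adjusted p = 0.00179) and differed by -0.05 ± 0.16 in wild-type mice (limma adjusted p = 0.804). The 2 values of Aspa differ by the change of its genotype effect given above, for which no p-value is given. The arrays are those of the genotype differences, so the values are not independent of them.

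**Figure D5:**
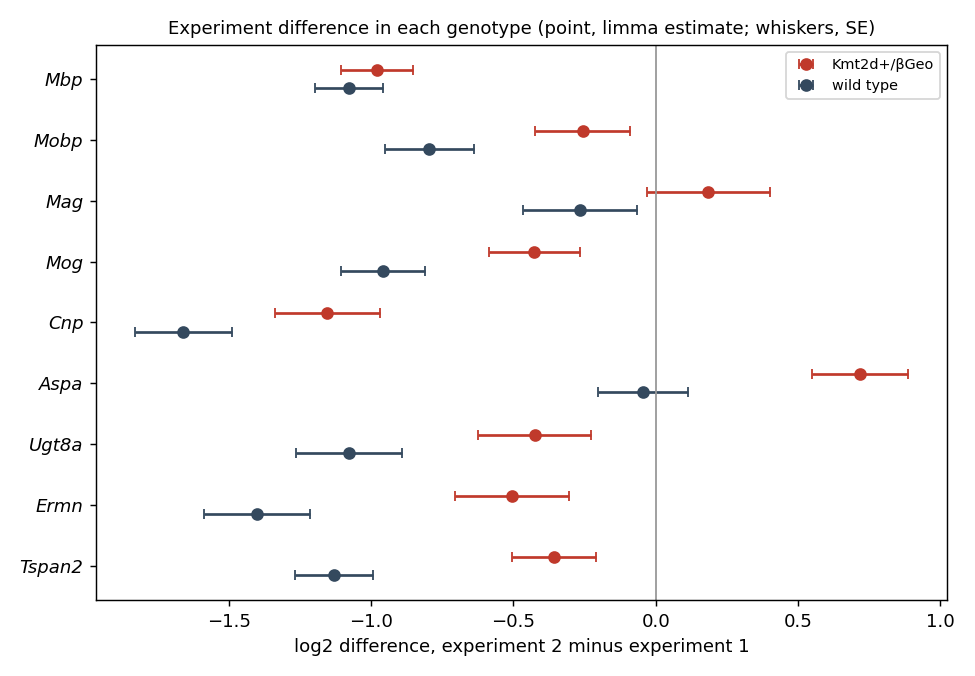
Difference of each gene between the experiments (experiment 2 minus experiment 1, log2 units, x axis) in Kmt2d+/βGeo mice (red) and wild-type mice (blue), as limma estimates with SE whiskers. Cnp lies lowest in both genotypes, at -1.15 and -1.66, while Aspa lies at 0.72 in Kmt2d+/βGeo mice and -0.05 in wild-type mice.

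In Kmt2d+/βGeo mice 3 of the 5 lower calls were lost under another scaling. When the 13 arrays were quantile-normalised together, which put the median of all genes at -0.08 in place of 0.05, Mog was at -0.16 (limma adjusted p = 0.415), Ermn at -0.23 (0.388) and Tspan2 at -0.12 (0.559), while Cnp (-0.999), Mbp (-0.82) and Aspa (0.92) still passed. In wild-type mice that scaling put the median of all genes at -0.03 in place of 0.08. There the same 7 genes passed, Aspa turned to 0.20 and Mag was at -0.13. Of all calls, 49.8% in Kmt2d+/βGeo mice and 53.8% in wild-type mice were higher in experiment 2 as deposited, against 36.3% and 42.2% after that scaling. Leaving out Kmt2d+/βGeo replicate 1 or 2 of experiment 1, or replicate 1 of experiment 2, ended the calls of Mog, Ermn and Tspan2 in Kmt2d+/βGeo mice (limma adjusted p 0.0908 to 0.221), and leaving out replicate 2 of experiment 2 ended those of Ermn (0.0568) and Tspan2 (0.064). With every probe set tested, those of Ermn (0.0632) and Tspan2 (0.0689) were also lost. Ugt8a passed in Kmt2d+/βGeo mice with array weights (limma adjusted p = 0.0174) and without Kmt2d+/βGeo replicate 3 of experiment 2 (0.00796).

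Other oligodendrocyte genes also moved in both directions between the experiments. Of the 54 further mature genes, 22 fell and 13 rose in Kmt2d+/βGeo mice, and 27 fell and 8 rose in wild-type mice. Over all genes 31.3% fell and 31% rose in Kmt2d+/βGeo mice, and 32% fell and 37.3% rose in wild-type mice. Among all but the dimmest 30% of genes, more fell than rose in both genotypes, as given above. Trf fell by 0.67 in Kmt2d+/βGeo mice and fell by 1.13 in wild-type mice, and Gjc3 fell by 1.01 in Kmt2d+/βGeo mice and fell by 1.56 in wild-type mice. Septin4 rose by 0.58 in Kmt2d+/βGeo mice and was at 0.13 in wild-type mice, which did not pass. Of the 25 precursor genes, 10 fell and 4 rose in Kmt2d+/βGeo mice, and 12 fell and 4 rose in wild-type mice. Of the 18 transcription factors, 8 fell and 3 rose in Kmt2d+/βGeo mice, and 9 fell and 3 rose in wild-type mice, with Myrf at -0.54 in Kmt2d+/βGeo mice and -0.89 in wild-type mice.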

How the data were processed

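Per the labels' protocols, RNA of whole hippocampus was amplified, labelled with biotin and hybridised to 1 Affymetrix Mouse Gene 1.0 ST array per mouse. The deposited values are log2 intensities, which the authors obtained by RMA with oligo, as the submitters' processing notes state. Not given in the sources used here are tool versions, the genome build and a joint or separate normalisation of the experiments. All 13 columns were used and none were identical, though pairs of arrays held 124 to 1033 equal values. The platform annotation gave 21789 probe sets 1 gene symbol each, and the brightest of each gene was kept (19938 genes), with no filter on dim genes.

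Differences were tested over all genes, two-sided, using limma 3.58.1 under R 4.3.3 with Benjamini-Hochberg adjustment and a threshold of 0.05. Genotype and experiment differences came from a model of the 4 groups, and the pooled genotype difference from genotype plus experiment. The fit was tested on simulated data. The 9 genes and all lists were chosen with earlier results of these data known. Besides the 9 genes and Kmt2d, named genes were taken from a rule: per list the 2 lowest and 2 highest differences in experiment 1, and the 10 most and 5 least correlated with the mean of the 9. The labels number the replicates of a group and are read here as 1 mouse each. Where that does not hold, p-values measure only the spread between these samples, whose number limits the precision. Replicate numbers did not pair mice.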

Additional observations from a re-analysis of the deposited data

Results flagged for a closer look

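For 5 of the 9 genes every Kmt2d+/βGeo mouse lay below the wild-type mean in experiment 1 and above it in experiment 2. The genotype effect of experiment 2 minus that of experiment 1 was 0.451 for Mag, 0.532 for Mog, 0.505 for Cnp, 0.895 for Ermn and 0.774 for Tspan2 on the log2 scale. No p-value of a single gene is given for these differences, since the genes were chosen with the genotype differences in view. Without wild-type replicate 1 of experiment 2, the lowest mouse there for all 9 genes, they were 0.137 for Mag, 0.31 for Mog, 0.213 for Cnp, 0.682 for Ermn and 0.696 for Tspan2. Single values were checked only in the wild-type mice of experiment 1, and none was flagged in the 9 genes. With 4 mice such a check has little power, so nothing is read from it.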

How the results depend on the processing

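All 9 genes stayed below 0 for genotype in experiment 1 with each array left out in turn. In experiment 2 the median of the 9 ran from -0.018 to 0.437 with 1 array left out, the lower end without wild-type replicate 1 and the upper end without wild-type replicate 2. Between the experiments the median of the 9 was -0.13 in Kmt2d+/βGeo mice and -0.784 in wild-type mice with joint quantile normalisation. The cause was not tested. Calls over all genes for genotype in experiment 1, 4 as reported, were 0 with every probe set tested, 163 with array weights, 2 with joint quantile normalisation, 2 with only that experiment's arrays, 0 without both the array of unknown sex and the array high in striatal genes, and 0 to 48 with 1 array left out, with 48 without wild-type replicate 2, 2 without Kmt2d+/βGeo replicate 1 and 0 without wild-type replicate 3 or Kmt2d+/βGeo replicate 2 or 3. With array weights the 163 held 1 of the 9 genes, Aspa, at -0.576, a gene chosen with this contrast in view. In experiment 2 the calls over all genes were 2 with joint quantile normalisation and 0 to 91 with 1 array left out, the most without Kmt2d+/βGeo replicate 1. Over both experiments they were 21 with array weights, 1 without the 2 arrays named and 0 to 2 with 1 array left out. Between the experiments they were 20593 in Kmt2d+/βGeo mice and 22823 in wild-type mice when every probe set was tested, in place of 12424 and 13810 genes. Mice with the same replicate number did not deviate together (correlations of -0.228 to 0.221), and with the replicate number as a block 1 gene passed in experiment 1 and the block added no call elsewhere. Leaving out the 2 arrays together and the fit within 1 experiment were chosen after seeing the data. The number of mice per group, 3 or 4, limits the precision.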

Other observations

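The partners of Aspa in the use of N-acetylaspartate and acetate, and enzymes of myelin lipid synthesis, were mostly lower in experiment 2. Of 12 partner genes, 9 fell and 0 rose in Kmt2d+/βGeo mice, and 9 fell and 1 rose in wild-type mice. Over all genes 31.3% fell and 31% rose in Kmt2d+/βGeo mice, and 32% fell and 37.3% rose in wild-type mice. More genes fell than rose in both genotypes when the dimmest 30% were left out. Lists of other cells held many lower genes too, as 15 of 19 astrocyte genes fell in Kmt2d+/βGeo mice and 13 in wild-type mice, and 13 of 18 endothelial genes fell in Kmt2d+/βGeo mice and 11 in wild-type mice. Nat8l, the neuronal enzyme that makes N-acetylaspartate, fell by 1.63 in Kmt2d+/βGeo mice and fell by 1.56 in wild-type mice on the log2 scale, while Aspa was at 0.72 and -0.05. Slc16a1, a lactate transporter, fell by 0.77 in Kmt2d+/βGeo mice and fell by 1.28 in wild-type mice. Of 35 lipid genes, 22 fell and 3 rose in Kmt2d+/βGeo mice, and 26 fell and 3 rose in wild-type mice. Idi1, of cholesterol synthesis, was at -2.40 in Kmt2d+/βGeo mice and -2.69 in wild-type mice, and Cers2, which makes very long chain ceramides, at -0.52 and -0.98; all 4 values passed.

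Between the genotypes these lists had medians close to 0, at -0.04 and 0.09 for the partner genes and 0.00 and 0.07 for the lipid genes in experiments 1 and 2. Of 16 genes of the node and paranode, where myelin meets the axon, 11 were below 0 in experiment 1 and 8 in experiment 2, and none passed. Of 11 Schwann cell genes, 7 were below 0 in experiment 1 and 8 in experiment 2, and none passed.

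The other lists had these shares of genes above 0 in Kmt2d+/βGeo mice, and none of their genes passed. Of 19 astrocyte genes, 15 were above 0 in experiment 1 and 11 in experiment 2. Of 19 microglial genes, 10 and 4 were above 0 in experiments 1 and 2, and of 18 endothelial genes, 11 and 7. Of 15 CA1 pyramidal cell genes, 7 were above 0 in each experiment. Of 12 thalamic genes, 8 and 4 were above 0, of 11 cortical genes, 6 and 1, and of 2 red cell genes, 0 and 1.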
